A study of Mus musculus with 3 samples.

Results

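Long internal exons carried 3446 of the 19301 m6A sites predicted in RAW264.7 macrophages. These are the sites that lie in coding sequence (CDS), on the strand of the gene, in an exon of at least 400 nt that is neither the first nor the last of its transcript. They made up 17.9% of all listed sites (95% Wilson interval 17.3 to 18.4) and 35.5% (34.6 to 36.5) of the 9695 sites in the CDS of a single protein-coding gene. Each gene was represented by its transcript with the longest CDS in GENCODE M21 on the mouse genome build GRCm38. The members fell in 1076 exons of 936 genes. Of the 3714 genes that have a long internal coding exon, 936, or 25.2%, held at least 1 member. Further comparison sites were 1304 CDS sites in internal exons under 400 nt and 4028 CDS sites in last exons.

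The sites come from miCLIP2, in which an antibody is crosslinked by UV light to m6A in poly(A)+ RNA and the reads mark the crosslinked nucleotide. RAW264.7 is an established mouse macrophage line. It was untreated, with no genetic change named in the labels, was profiled in 3 replicates with a rabbit anti-m6A antibody from Synaptic Systems, and is called human in the series text but mouse in the organism label. The 3 replicates were merged into 1 list, in which a machine learning classifier named m6Aboost gives each site a prediction score of at least 0.5.

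m6A is the most common internal modification of mRNA, and most of it is written by a complex around the methyltransferase METTL3 at the consensus DRACH, in which D stands for any base but C, R for a purine and H for any base but G. It affects RNA decay, export and translation through reader proteins, and is best known around stop codons and in long exons. Exon junction complexes, which are deposited just upstream of splice junctions, are known to keep methylation low near them, so the distance from a site to the junctions at both ends of its exon is the quantity of interest here.

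The score is an output of the classifier and not a methylation level. m6Aboost reads the 21-nt window around the site, C-to-T changes in the reads, the signal at the site relative to its gene and the part of the transcript (UTR or CDS). Exon length and junction distance are not listed among its inputs. As the list gives neither replicate values nor read counts, the depth behind a site is unknown, no replicate error can be given, and there is no test between conditions. The intervals below are 95% Wilson intervals of a share. They cover counting error only, since sites of the same gene share its expression and its reads. The list holds no expression levels, so the macrophage label could not be checked by level. Among macrophage markers, the transcripts of Csf1r and Spi1 held 8 and 6 sites, Ptprc held 1, and Adgre1, Cd68 and Itgam held 0, which says nothing of their expression.

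The windows that follow show examples of the members, 5′ to 3′ on the strand of the gene, as DNA letters of GRCm38. Capitals mark the pentamer with the predicted m6A at its centre. For each of the 10 genes with the most members, the highest-scoring member is shown with its window position and its exon.
Rnf213 (chr11:119440883-119440903, plus strand, exon 28): tgaccaaaGAACTgtttgatg
Mki67 (chr7:135696783-135696803, minus strand, exon 12): tgactcagTGACTgttgagga
Macf1 (chr4:123434787-123434807, minus strand, exon 56): tgtgccaaGAACTctcactgc
Spen (chr4:141474568-141474588, minus strand, exon 12): gagccagaGAACTtctccgct
Son (chr16:91659653-91659673, plus strand, exon 3): cttcctaaGGACAtggagcgt
Kmt2d (chr15:98850537-98850557, minus strand, exon 35): caaacactGAACTtagtcgtc
Zfp646 (chr7:127883207-127883227, plus strand, exon 2): aatgggaaAGACTgtcacatt
Scaf1 (chr7:45007198-45007218, minus strand, exon 7): ccacctaaGGACTcgacgcct
Cep250 (chr2:155990523-155990543, plus strand, exon 28): aggttcagGAACTggagaagc
Srrm2 (chr17:23819260-23819280, plus strand, exon 11): aacctcgtGGACTccaaagat

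The 5 members with the highest scores are shown because their windows are those the classifier ranked first. All 5 carried a pentamer ending in ACT.
Dnajb1 (chr8:83610026-83610046, plus strand, exon 2): accaacatGAACTttggacgt
Tab2 (chr10:7920347-7920367, minus strand, exon 3): ccaataacGAACTgtttcagc
Hipk3 (chr2:104471690-104471710, minus strand, exon 2): aatggtagAAACTttggcaat
Gpatch3 (chr4:133578175-133578195, plus strand, exon 2): ggactcagAGACTgtggagca
Scaf11 (chr15:96418511-96418531, minus strand, exon 11): gagaaaatAAACTctgggcca

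The highest-scoring members at 3 of the 5 most frequent pentamers complete the windows, since those for the other two are the windows of Dnajb1 and Gpatch3 above.
Pik3r5 (chr11:68492716-68492736, plus strand, exon 10): agccccttGGACTgtcccgct
Prag1 (chr8:36103527-36103547, plus strand, exon 3): ccaagtatGGACAggtgatac
Rps6kc1 (chr1:190799686-190799706, minus strand, exon 11): tcagcaatGGACCctaagttt

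The 2 members nearest to a junction are shown as the exceptions to the general distance. In both, the window runs past the end of the exon, and its last bases are the start of the intron.
Midn (chr10:80150300-80150320, plus strand, exon 2): cttcacaaAGACAcgtaggta
Arid1a (chr4:133684869-133684889, minus strand, exon 18): acaatgaaAGACAttggtaag

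The exons that carried members were somewhat longer than all long internal exons, with overlapping quartiles. All 4665 long internal coding exons had a median length of 684 nt (quartiles 512 to 1013, maximum 17106). The 1076 exons with a member had a median of 741 nt (551 to 1177, maximum 9837). An exon with a member held a median of 2, and 307 exons held 1, 222 held at least 5 and 37 held at least 10. A gene held a median of 3 members (quartiles 1 to 5, maximum 36). The members were not concentrated in a few genes, as the 10 leading genes held 223 of them (6.47%) and the 20 leading genes 367 (10.7%), while 236 genes held 1 each.

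Members lay mostly in the interior of their exons. The nearest junction was a median of 261 nt away (quartiles 167 to 439, range 3 to 3930). The upstream junction was a median of 444 nt and the downstream junction 419 nt away. Only 76 members (2.21%, 1.77 to 2.75) lay under 50 nt from a junction and 302 (8.76%, 7.87 to 9.75) under 100 nt, whereas 2281 (66.2%, 64.6 to 67.8) were at least 200 nt from both. Of all DRACH A in long internal exons of genes with a last-exon site, 20.6% lay under 100 nt from a junction and 58.3% at least 200 nt from both, and of the listed ones among them 9.73% lay under 100 nt. The distance to the stop codon is set in large part by the choice of exons, since the stop codon usually lies in the last exon. A median of 1610.5 coding nt separated a member from the end of the CDS, against 858 for sites in short internal exons and 202 for CDS sites in last exons. The share within 400 coding nt of the CDS end was 4.53% of members, 21.5% of sites in short internal exons and 68% of those in last exons. The CDS end itself lay in the same exon for 46 members (1.33%) and the CDS start for 622 (18%).

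Distances of sites alone depend on how much sequence each distance offers. The A of every DRACH in the CDS was therefore counted, and the listed share is the percentage of those A that are in the list. To keep to expressed genes, the count was limited to genes with at least 1 listed site in their last exon, a condition that long and short internal exons do not enter. In these genes 1726 of 15121 DRACH A in long internal exons were listed, or 11.4% (10.9 to 11.9), from 659 genes. In short internal exons 674 of 89877 were listed, or 0.75% (0.696 to 0.808). The ratio of both shares was 15.2, and the intervals were far apart. Last exons reached 14.2%, but that share is raised by the condition itself. With the condition turned round, the last exons of genes with a member had 11% (10.2 to 11.9) of 4736 DRACH A listed, which overlaps the 11.4% of long internal exons. At least 200 nt from the upstream junction, these last exons had 18.3% (16.7 to 20.1) listed, above the 12.7% (12 to 13.4) of long internal exons at least 200 nt from both junctions. Where the nearest junction was 200 to under 500 nt away, long internal exons had 16.4% (15.4 to 17.5). This overlaps the share of those last exons, which were not cut at 500 nt. The gene sets differ, as the last exons are from genes with a member and the long internal exons from genes with a last-exon site. The short internal exons of the same member genes had 0.44% (0.376 to 0.514) of 35258 listed.

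The listed share rose with distance from the nearest junction up to about 200 nt. In long internal exons it was 2.81% (2.1 to 3.76) under 50 nt, 8% (6.75 to 9.46) at 50 to under 100 nt, 12.6% (11 to 14.3) at 100 to under 150 nt and 14.8% (13.2 to 16.7) at 150 to under 200 nt. It was 16.8% (15.4 to 18.4) at 200 to under 300 nt and 16% (14.6 to 17.5) at 300 to under 500 nt, which do not differ beyond their intervals. Further in, it was lower, at 10.4% (9.2 to 11.7) for 500 to under 1000 nt and 6.22% (5.2 to 7.42) from 1000 nt on. Those 2 bins hold only exons of at least 1000 nt, so the fall mixes exon lengths. Within exons of 1000 to under 2000 nt the share was 14.7% (13.1 to 16.5) at 200 to under 500 nt and 13.6% (11.7 to 15.8) further in, which overlap. Within exons of at least 2000 nt it was 11.5% (9.43 to 14) and 6.8% (5.97 to 7.75), and these intervals do not overlap. Last exons, measured from their upstream junction, gave 3.58% under 50 nt and 20.4% at 200 to under 300 nt, and 13.5% (12.5 to 14.6) from 1000 nt on.

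**Figure D1:**
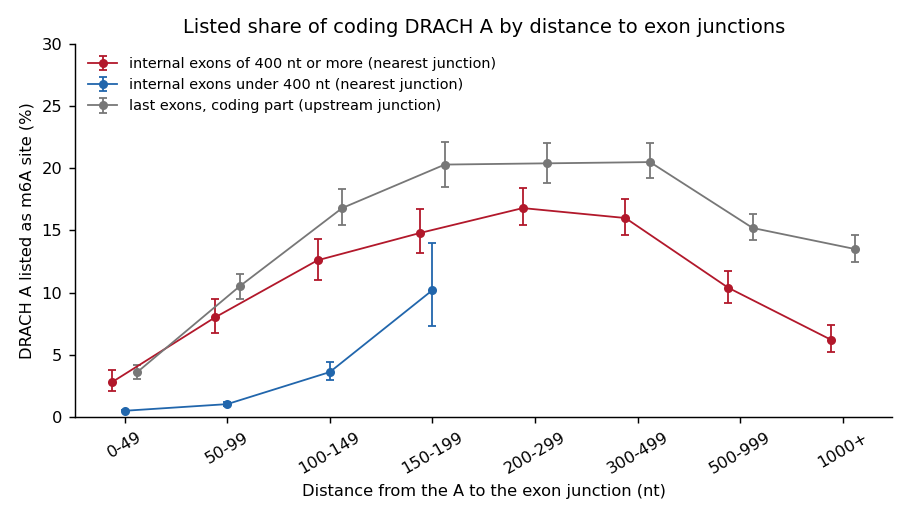
Percentage of coding DRACH A that are listed (y axis) against the distance in nt to the exon junction (x axis, unequal bins), for long internal exons (red), short internal exons (blue) and the coding part of last exons (grey); points are shares and bars 95% Wilson intervals. In long internal exons the share climbs from 2.81% to 16.8% at 200 to under 300 nt and is 6.22% from 1000 nt on, and short internal exons lie below at each distance they share, by less at 150 to under 200 nt.

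The gap between long and short exons was narrower from 100 nt on. At the same nearest distance, long internal exons exceeded short ones 5.7-fold under 50 nt, 7.76-fold at 50 to under 100 nt and 3.49-fold at 100 to under 150 nt. At 150 to under 200 nt the ratio was 1.46, with 14.8% (13.2 to 16.7) against 10.2% (7.31 to 14), and the intervals overlapped. Only the longest of the short exons, above 300 nt, reach that distance on both sides.

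The 2 sides of a long exon gave similar profiles. With the other junction at least 200 nt away, DRACH A under 50 nt from the upstream junction were listed in 3.35% (2.28 to 4.9) and those under 50 nt from the downstream junction in 2.32% (1.49 to 3.6). At 50 to under 100 nt the shares were 8.32% (6.57 to 10.5) and 7.68% (6.01 to 9.76), and at 200 to under 300 nt 16.6% and 16.9%. The intervals of both sides overlapped in every bin up to 1000 nt, which leaves differences of about the width of the intervals open.

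The distance to the farther junction moved with the share as well. Among DRACH A 50 to under 100 nt from their nearer junction, in internal exons of any length, 0.607% (0.472 to 0.78) were listed when the farther junction was also under 100 nt away, 1.02% at 100 to under 200 nt, 4.98% (4.04 to 6.13) at 200 to under 400 nt, 7.95% (6.2 to 10.1) at 400 to under 800 nt and 8.59% (6.35 to 11.5) from 800 nt on. Among those under 50 nt from the nearer junction the share went from 0.35% (0.291 to 0.421) to 3.06% (1.89 to 4.91) over the same steps. Where both junctions were at least 200 nt away and the farther one under 400 nt, 19.3% (16.9 to 22) were listed. Up to 800 nt, a DRACH A under 100 nt from 1 junction was listed more often the farther away the other one was, and the last step was within the intervals. At a given distance to the nearer junction, the farther distance sets the exon length, so those 2 cannot be told apart. The distance to the nearer junction can be separated from length. Within exons of 400 to under 600 nt the share was 5.51% (4.42 to 6.85) under 100 nt, 14.3% (12.5 to 16.3) at 100 to under 200 nt and 18.4% (15.3 to 22) from 200 nt on.

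**Figure D2:**
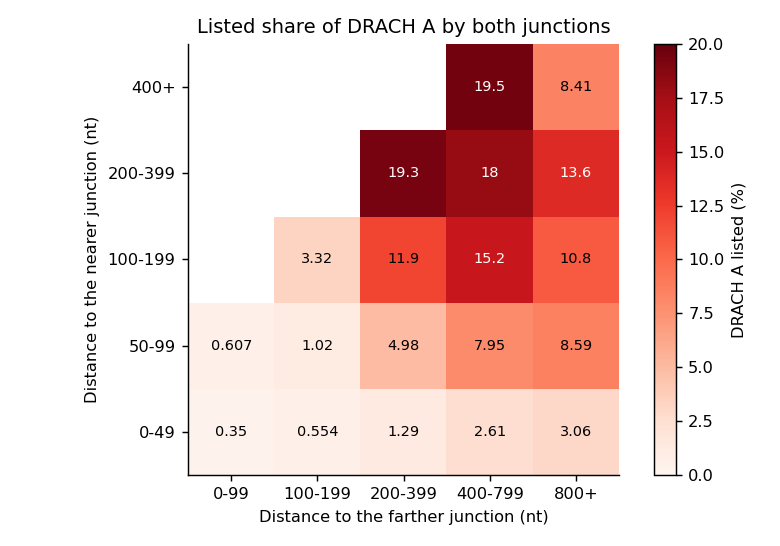
Percentage of DRACH A listed (colour and printed value) in internal exons by the distance in nt to the nearer junction (y axis) and to the farther junction (x axis). In the lower 2 rows shares rise to the right, from 0.35% to 3.06% and from 0.607% to 8.59%; in the upper rows they are lower in the last column, at 8.41% where the nearer junction is at least 400 nt and the farther at least 800 nt away.

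Listed share rose with exon length up to 1000 nt and was lower from 2000 nt on, where it rests on 56 genes. Internal exons under 100 nt had 0.374% of their DRACH A listed, those of 100 to under 200 nt 0.526%, of 200 to under 300 nt 1.23% and of 300 to under 400 nt 5.3% (4.53 to 6.2). The share was 11.2% (10.2 to 12.4) at 400 to under 600 nt and 14.6% (13.5 to 15.7) at 600 to under 1000 nt, then 12.7% (11.7 to 13.8) at 1000 to under 2000 nt and 7.69% (6.94 to 8.52) from 2000 nt on. Around the 400-nt threshold itself the step was small, with 6.53% (5.22 to 8.15) at 350 to under 400 nt and 9.5% (7.74 to 11.6) at 400 to under 450 nt.

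**Figure D3:**
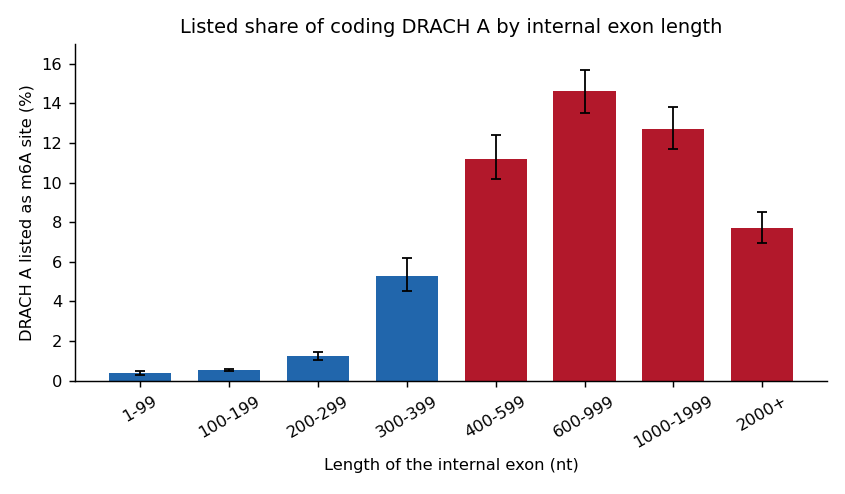
Percentage of coding DRACH A that are listed (y axis, from 0) by length of the internal exon in nt (x axis, unequal bins); bars are shares, error bars 95% Wilson intervals, blue below and red above the threshold of 400 nt. The share is 0.374% under 100 nt, highest at 14.6% for 600 to under 1000 nt and 7.69% from 2000 nt on.

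The lower share of the longest exons was seen away from their ends. At 200 to under 500 nt from the nearest junction, 19.6% (17.8 to 21.5) of DRACH A were listed in exons of 600 to under 1000 nt and 11.5% (9.43 to 14) in exons of at least 2000 nt. At under 100 nt from a junction the shares were 4.86% (3.68 to 6.38) and 6.59% (4.15 to 10.3), which overlap. At least 500 nt from both junctions, exons of at least 2000 nt had 6.8% (5.97 to 7.75) listed and those of 1000 to under 2000 nt 13.6% (11.7 to 15.8). The exons of at least 2000 nt come from 56 genes, so that bin rests on few transcripts.

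GC content moved with the share. In the 80 nt around a DRACH A, 40 on each side of the 21-nt window that the classifier reads, on the genome, listed A in long internal exons had a median GC of 56.2% and unlisted A 52.5%. The listed share was 3.19% (2.26 to 4.49) where the flanks had under 40% GC, 6.91% at 40 to 50%, 12.2% at 50 to 60% and 17.3% (16.1 to 18.5) from 60% on. The longest exons were poorer in GC, with 43.4% of their DRACH A in flanks under 50% GC against 28.5% in exons of 600 to under 1000 nt. Within flanks of at least 50% GC the share was still 10.3% (9.13 to 11.5) in exons of at least 2000 nt against 17.3% (15.9 to 18.8) in exons of 600 to under 1000 nt. Within flanks under 50% GC it was 4.34% (3.51 to 5.35) against 7.76% (6.31 to 9.51). The part of GC content in either pattern was not tested.

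Genes differ in expression, and a higher share in long exons could come from other genes than the share in short ones, so both exon classes were compared inside the same gene. In 353 genes each class offered at least 10 DRACH A. The listed share was higher in the long internal exons of 271 genes, lower in 9, and 0 in both classes in 73. Summed over these genes, 1193 of 11129 DRACH A (10.7%) were listed in long and 77 of 17039 (0.452%) in short internal exons. The median gene had 11.1% in its long and 0% in its short internal exons, and 297 genes had no listed DRACH A in short internal exons.

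**Figure D4:**
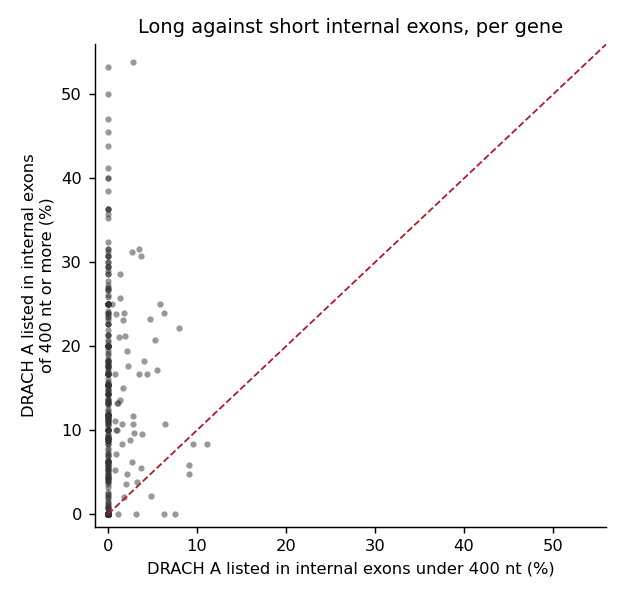
Each of the 353 points is a gene, with the percentage of DRACH A listed in its short internal exons on the x axis and in its long internal exons on the y axis; the dashed line marks equal shares. Most points lie on the y axis or above the line, 9 lie below it, and 73 coincide at 0 in both.

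The 9 genes with the opposite order had few sites in either class. Spata13, which encodes a guanine nucleotide exchange factor, had 0 of 31 DRACH A listed in long and 3 of 40 in short internal exons. Nolc1, a nucleolar phosphoprotein, had 0 of 12 against 2 of 32. Dido1 had 1 of 47 (2.13%) against 2 of 41 (4.88%). Smarca4, the ATPase of the BAF chromatin remodelling complex, had 0 of 10 against 1 of 92. The other five were Lnx2, Tmem168, Rrp8, Knop1 and Tut1, each with at most 1 listed DRACH A in its long and at most 2 in its short internal exons.

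The consensus at members was the usual one. DRACH was present at 3217 members (93.4%, 92.5 to 94.1), against 91.2% (89.5 to 92.6) in short internal exons and 92.6% (91.7 to 93.3) in last exons, and these intervals overlap. GGACT was the most frequent pentamer with 610 members (17.7%), followed by GGACA with 524, GAACT with 459, AGACT with 418 and GGACC with 283. GGACT held a larger part of the sites in short internal exons, 22.6% (20.4 to 25) against 17.7% (16.5 to 19), and AAACT a smaller one, 3.6% (2.72 to 4.76) against 6.44% (5.67 to 7.31). Of the 229 members outside DRACH, 75 were at GGACG, 45 at GTACT and 21 at GAACG.

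The excess over short internal exons held for each pentamer. All 18 DRACH pentamers had a higher listed share in long than in short internal exons, and for 15 the intervals did not overlap. GGACT was listed in 36.8% (33.7 to 40) of its occurrences in long and 3.58% (3.1 to 4.13) in short internal exons. GAACT had 29.1% against 1.94%, GGACA 23.2% against 1.31% and AGACT 21.7% against 1.71%. At the other end, TGACC was listed in 3 of 911 occurrences (0.329%) in long and 6 of 6114 in short internal exons. Among the 9 pentamers with at least 20 listed sites in short internal exons, the ratio ran from 10.3 for GGACT to 25.1 for AAACT. Even at GGACT, most occurrences in long internal exons were not listed.

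The score of members equalled that in last exons and exceeded that in short internal exons. The median was 0.71 for members (quartiles 0.616 to 0.802), 0.71 for last exons and 0.636 (0.554 to 0.743) for short internal exons. At GGACT alone the medians were 0.767, 0.769 and 0.717, in the same order. Within long exons the score varied little with distance. Its median was 0.697 for the 76 members under 50 nt, 0.709 at 50 to under 100 nt, 0.714 at 100 to under 150 nt and 0.721 at 150 to under 200 nt. It was 0.697 at 200 to under 300 nt, 0.715 at 300 to under 500 nt, 0.709 at 500 to under 1000 nt and 0.733 from 1000 nt on. Scores of at least 0.9 were given to 141 members (4.09%).

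The predicted A was the second base of its codon in 1606 members (46.6%, 44.9 to 48.3), the first in 915 (26.6%) and the third in 925 (26.8%). GAC, an aspartate codon, was the codon of 1259 members (36.5%), followed by ACT with 620 (18%) and GGA with 355 (10.3%). Of all DRACH A, 9.95% (9.1 to 10.9) were listed at the first position, 11.4% at the second and 13.3% (12.2 to 14.5) at the third. Within GGACT the shares were 38.9% (32.6 to 45.5), 36.4% and 35.4% (29 to 42.4), and their intervals overlapped. Within AGACT they were 16.7% (13.4 to 20.7), 24.8% (20.7 to 29.4) and 26.7% (20.5 to 33.9), and the intervals of the first and second positions touched.

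The gap between adjacent members of an exon had a median of 93 nt (quartiles 35 to 202), where adjacent DRACH A of the same exons were a median of 30 nt apart. Another member lay within 50 nt of 1437 members (41.7%) and within 100 nt of 2047 (59.4%). Members within 5 nt of each other, were 68 (1.97%).

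The gene with the most members was Rnf213, a very large E3 ubiquitin ligase with a role in defence against intracellular microbes. It held 36 in 4 long exons. Exon 28 (chr11:119440189-119443791, 3603 nt) alone held 24, of which 22 were among its 74 DRACH A (29.7%), and its window is shown above with a score of 0.959. Exon 25 held 8 members in 1150 nt with 30% of DRACH A listed. Further exons of the same gene were sparser, with 2 members each in exons 3 and 20.

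Mki67, which encodes the proliferation marker Ki-67, held 35 members, 29 of them in exon 12 (chr7:135694232-135701067, 6836 nt). No more than 6 of the 29 fell in any 500 nt, and 11.2% of its 258 DRACH A were listed. Macf1, a crosslinker of microtubules and actin, held 24 members in 4 exons, and its exons differed. Exon 57 had 11 of 35 DRACH A listed (31.4%) in 1472 nt, and exon 36 had 8 of 140 (5.71%) in 5331 nt.

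Spacing was uneven in several of the leading exons, whose longest stretch without a member was looked up after the sites were known. In Son, a splicing cofactor of nuclear speckles, exon 3 (chr16:91654611-91660580, 5970 nt) held 20 members with a median score of 0.849. A run of 500 nt starting 1935 nt from the upstream junction held 10 of them, all spaced by multiples of 30 nt, and a stretch of 1053 nt further upstream, with 19 DRACH A, held none. In Spen, a transcriptional repressor that acts in X inactivation, exon 12 (8020 nt) held 21 members, and its last 2059 nt held none over 33 DRACH A. In Rai1, a transcription regulator, the first 1803 nt of exon 3 (5527 nt) held none over 37 DRACH A, and the rest held all 16. Kmt2d, a histone H3 lysine 4 methyltransferase, had no member in the first 1524 nt of exon 40 and 11 in the remainder of its 2952 nt. Srrm2, a scaffold of nuclear speckles, had none in the first 1505 nt of exon 11 (6569 nt) over 26 DRACH A, and 16 thereafter. The last of these were evenly spaced, at 5551, 5593, 5635 and 5677 nt from the upstream junction. In exon 12 of Mki67, pairs at 1396 and 1433 nt and at 4237 and 4274 nt had the same gap. Whether these Srrm2 and Mki67 sites lie in repeated sequence was not tested.

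The 10 clustered sites of Son lie in a repeated sequence. Their 21-nt windows take 5 distinct forms and differ by a median of 2 bases between pairs (0 to 6), and 9 of the 10 are at GGACT. Whether reads were assigned to the right copy of the repeat was not tested, so these sites may not be independent. The first site of each form is shown, on the plus strand, to make the repeat visible.
Son (chr16:91656536-91656556, exon 3): aataccatGGACTcccagatg
Son (chr16:91656566-91656586, exon 3): aacactatGGATTctcagatg
Son (chr16:91656626-91656646, exon 3): agcaccatGGACTcccagatg
Son (chr16:91656776-91656796, exon 3): agcagtatGGACTcccagatg
Son (chr16:91656926-91656946, exon 3): agttccatGGACTcccagatg

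**Figure D5:**
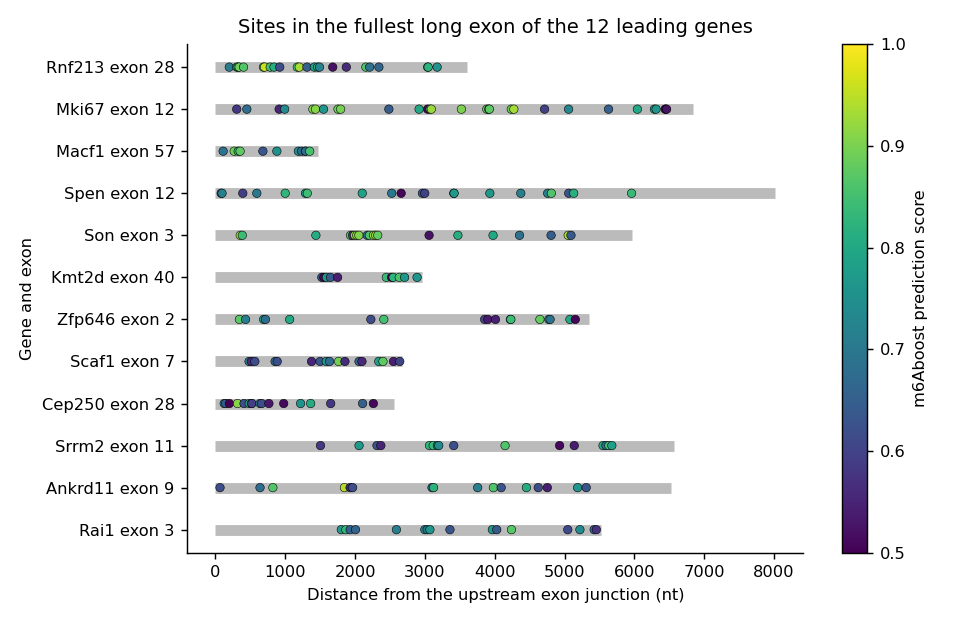
Position of each member (point, coloured by m6Aboost score) along the long internal exon with most members in the 12 leading genes (grey bar drawn to the exon's length), in nt from the upstream junction (x axis). Spacing is uneven, as in Son exon 3, where 10 of 20 members lie within 500 nt of repeated sequence, and in Rai1 exon 3, where the first 1803 nt are empty.

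Exon 7 of Scaf1, an SR-related protein that binds the C-terminal domain of RNA polymerase II, held 17 members, with 16 of 41 DRACH A listed (39%). Exon 11 of Cic, a transcriptional repressor, had a like share over fewer candidates, with 4 of 10 (40%). Cep250, a linker of centrosomes, had 23.8% of 63 listed in exon 28. Extl3, a glycosyltransferase of heparan sulfate synthesis, held 13 members in exon 3 (2606 nt), 10 of them within 500 nt. The other leading genes were Zfp646 with 17 members, Ankrd11, Rai1 and Zfp106 with 16 each, Helz2 and 1700017B05Rik with 15 each, Tnrc6c with 14, and Prag1, Ranbp2 and Cic with 13 each. Of the 20 leading genes, Macf1, Son, Scaf1, Srrm2, Ankrd11, Zfp106, Helz2, Tnrc6c and Ranbp2 had no listed site in the last exon. Over all members, 1583 (45.9%) were in genes without a last-exon site, and the listed shares by distance and exon length do not contain them.

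Gene groups were described with 5 lists of 40 genes each, against the 25.2% of all genes with a long internal exon that held a member. The lists were chosen with earlier results of these data known, so a share above 25.2% is not evidence for a group. No list was tested. The lists may differ from all genes in expression and in the length of their exons, which were not compared. All 40 chromatin and transcription regulators have a long internal exon, and 30 (75%) held members, 175 in all. Besides Spen, Kmt2d, Ankrd11 and Rai1, the transcription coregulator Tcf20 held 11 in a single exon, the highest with a score of 0.923. The listed share in the list's genes with a last-exon site was 6.67% (5.47 to 8.12), below the 11.4% of all genes.

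RNA processing and decay genes gave a similar share of genes. Of the 29 with a long internal exon, 22 (75.9%) held members, 169 in all. Only 9 genes of this list entered the listed share, as those with a last-exon site. In these, 12.9% (9.81 to 16.9) of 348 DRACH A were listed, an interval that contains the share of all genes. Tnrc6c, a GW182 protein of microRNA silencing, held 14 members in exon 5, and Scaf11, a splicing regulator, held 12, with scores from 0.651 to 0.963. Son, Scaf1, Srrm2 and Tnrc6c had no site in their last exon and are not part of the 12.9%.

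Cytoskeletal and anchoring scaffolds held members in 20 of 32 genes (62.5%), with 128 in all. In the 10 genes with a last-exon site, 9.41% (7.13 to 12.3) of DRACH A were listed. Golga4, a golgin of the trans-Golgi network, held 12 in 1 exon, and Map1s, a microtubule-associated protein, held 11 with 8 of 26 DRACH A listed (30.8%). Pcnt, the centrosome scaffold pericentrin, spread 10 members over 5 exons. Plec, the cytolinker plectin, was the opposite of most leading genes, with 10 members in a long internal exon and 53 sites in its last exon.

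DNA repair, replication and mitosis genes held members in 14 of 28 genes (50%), 95 in all. In the 6 genes with a last-exon site, 67 of 657 DRACH A were listed, or 10.2% (8.11 to 12.7). Mki67 alone gave 298 of these DRACH A and 35 of the listed ones. After Mki67, Cenpf, a kinetochore protein, held 11 in 3 exons with 5.73% of 192 DRACH A listed, and Slx4, a scaffold of structure-specific nucleases, held 10 in 1 exon with 14.3% of 63 listed. The DNA damage mediators Trp53bp1 and Mdc1 held 7 each. The members of Trp53bp1 were a median of 97 nt from a junction, and those of Mdc1 296 nt.

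Innate immunity and macrophage genes had the smallest share, 4 of 17 (23.5%), close to the 25.2% of all genes. Their listed share was 14.5% (10.4 to 19.7) over 3 genes with a last-exon site, and it rests on Rnf213 with 31 of 124 DRACH A listed, as Nlrx1 had 1 of 38 and Naip2 had 0 of 59. Rnf213 held 36 of the 49 members of this list and Nlrp3, the sensor of the NLRP3 inflammasome, held 11. All 11 lay in 1 exon, at least 138 nt from a junction, 9 of 41 DRACH A there were listed (22%), and the last exon held none. Nlrx1, a mitochondrial NLR protein, and Naip2, a sensor of bacterial secretion systems, held 1 each. The Naip genes resemble each other in sequence, and whether reads of other copies add to the site of Naip2 was not tested. Genes of this list with a long internal exon and no member included Nlrp1b, Nlrc4, Nlrc5, Nod1, Nod2, Ciita, Tnfaip3 and Mertk, which at an unknown depth does not show that they are unmethylated.

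The highest scores were not in the genes with the most members. Dnajb1, an HSP40 cochaperone, and Tab2, an adaptor of the kinase TAK1, each had a member at 0.975, 222 and 257 nt from the nearest junction. Hipk3, a protein kinase, reached 0.973 at 147 nt, Gpatch3, a G-patch protein, 0.965 and Scaf11 0.963 at 449 nt. The members nearest to a junction were in Midn and Arid1a. In Midn the site was 3 nt from the downstream junction with a score of 0.555, and in Arid1a, a subunit of the BAF complex, 5 nt with a score of 0.614. Both were at AGACA, where members had a median score of 0.625.

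Length alone did not make a listed exon. In genes with a last-exon site, 534 of 838 long internal exons (63.7%, 60.4 to 66.9) held a member. The share was 53% (47.8 to 58.1) for exons of 400 to under 600 nt, 67.9% for 600 to under 1000 nt, 75.2% for 1000 to under 2000 nt and 79.7% (67.7 to 88) for at least 2000 nt. These are shares of exons, and a longer exon offers more DRACH A. Per DRACH A, the listed share from 2000 nt on was 7.69%, as given above. In genes with at least 3 last-exon sites, 138 of 390 long exons held none. The fullest of these in DRACH A was exon 2 of Apobr, the apolipoprotein B receptor (chr7:126585376-126587811, 2436 nt), with 72 DRACH A and 5 sites in the last exon. Exon 3 of Kmt2a, a histone H3 lysine 4 methyltransferase like Kmt2d, had 58 DRACH A in 2651 nt and no member, while its last exon held 7 sites. Exon 8 of Arhgap21 had 51, and exon 3 of Chd9, a chromodomain helicase, and exon 6 of Parp14, an ADP-ribosyltransferase, had 46 each.

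The annotation leaves some exons open to another reading. For 1115 members (32.4%) the exon overlaps a last exon of another transcript of the gene, and for 659 (19.1%) a first exon, so that in the cell it may not have been internal. For 1935 members (56.2%) it overlaps neither. Without exons of both kinds, the listed share in long internal exons was still 11.4%, against 0.668% in short ones.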

How the data were processed

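Sites were measured by miCLIP2 on polyadenylated RNA of RAW264.7 cells, in 3 replicates. Per the methods and the submitters' processing notes, the authors aligned reads with STAR (2.7.3a), removed PCR duplicates with UMI-tools (1.0.0), used SAMtools (1.9) and bedtools (2.27.1), called crosslink peaks, kept peaks found in at least 2 replicates and classified them with m6Aboost. They deposited 1 list of sites on GRCm38 with the prediction score. The score is a model output of 0.5 or more, and no counts, coverage or replicate values are in the list, so depth is unknown.

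Here, all 19301 positions were read on GRCm38 (RefSeq GRCm38.p6) and all were at A. The study's annotation was GENCODE M23, and M21 was used here. Of each of 21951 genes the transcript with the longest CDS was taken (ties by spliced length, then identifier). For 186 of them it is not of type protein_coding. Sites in the CDS of more than 1 gene (112) were set aside. Junction distance is the number of nt between the A and the first or last base of its exon. Listed shares used DRACH A of genes with at least 1 last-exon site. Intervals are 95% Wilson intervals (Python 3.11.15, NumPy 2.4.6, pandas 2.3.3, SciPy 1.17.1, matplotlib 3.10.9). The scripts were tested on simulated data. Reads, splicing in these cells and expression were not analysed here.

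Named genes were the 20 with most members, up to 5 with most members in each of 5 lists of 40 genes, the 5 highest-scoring members, and the 5 memberless long exons with most DRACH A in genes with at least 3 last-exon sites. Genes named outside this rule were chosen after their values were seen. The members and lists were chosen with earlier results of these data known. Alternatives tried were other score and exon length thresholds, collapsed neighbouring sites, 1 site per exon, other transcript choices, other background genes or motif, and leaving out the 10 leading genes.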

Additional observations from a re-analysis of the deposited data

How the results depend on the processing

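No paired analysis was possible because the 3 replicates were merged into 1 list of 1 condition, and leaving out a replicate was impossible for the same reason. No value changed direction under any alternative run. The ratio of the listed share in long over short internal exons was 15.2 and ranged from 6.12 (exons of at least 1000 nt) to 21.3 (scores of at least 0.7). Of the 85 values recomputed, 42 stayed within the counting interval or 1.5 times the count, and 43 moved, as follows. The cause was not tested except where fewer sites or other exons follow from the setting itself.

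At scores of at least 0.7, members numbered 1819, DRACH held 96.6% of them, their median score was 0.799, and listed shares were 6.33% in long internal exons, 0.297% in short ones and 7.18% at least 200 nt from both junctions. At scores of at least 0.9, the values were 141 members, 99.3% DRACH, a median of 0.922, and shares of 0.489%, 0.0245% and 0.579%, with 44 of 353 genes higher in long exons in place of 271. With exons of at least 300 nt, 11.1% of members were under 100 nt from a junction, and shares were 10.5% in long and 0.605% in short exons. With exons of at least 600 nt, 5.96% were under 100 nt, and the short share was 1.11%. With exons of at least 1000 nt, there were 1624 members, 4.19% under 100 nt, shares of 10% in long exons, 1.64% in short ones and 10.4% beyond 200 nt, and 113 of 145 genes higher in long exons. With exons that overlap another transcript's terminal exon left out, there were 1935 members, 94.2% at DRACH, a short share of 0.668% and 153 of 197 genes higher in long exons. With 1 site per exon, there were 1076 members, 95.8% at DRACH, 9.76% under 100 nt and a median score of 0.801. With well-supported transcripts, the long share was 12.8% and that beyond 200 nt 15.4%. Against all protein-coding genes, shares were 3.57% in long exons, 0.266% in short ones and 3.94% beyond 200 nt. Against genes with any listed site they were 10.5%, 0.955% and 11.4%. With RRACH as the background motif they were 13.1%, 0.903% and 14.4%. Collapsing sites within 5 nt and leaving out the 10 leading genes moved no value.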
